A study of Mus musculus with 28 samples.

Results

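The genes described here are 10 markers of liver endothelium among the 20416 genes of each deposited table. They were chosen by symbol, from their known cell type, with earlier results of these data known. 7 mark the sinusoids (Stab2, Kdr, Oit3, Lyve1, Clec4g, Fcgr2b and Gpr182), and 3 mark vessels of other kinds (Vwf, Cd34 and Plvap). All 10 passed the filter on low values in every comparison.

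The study measured polyadenylated RNA of whole liver from male C57BL/6 mice in 28 libraries, in a pair of models of non-alcoholic steatohepatitis (NASH). In the diet experiment, 4 libraries came from mice on a methionine- and choline-deficient diet (MCD) and 4 from mice on a matched low-fat control diet (CD). The diet lasted 4 weeks by the sample names and the design text, but 5 weeks by the label for the length of the study. In the STAM model, newborn mice received streptozotocin, a toxin of the insulin-producing beta cells, and a high-fat diet followed from week 4 of age. STAM livers and livers of mice on a control diet were collected at 4 and at 10 weeks of age, with 5 libraries in each of these 4 groups. The STAM animals of 4 weeks carry a high-fat diet label, although by the design text that diet began at this age. The sources used here do not say what the STAM controls were injected with, if anything. Nothing in the labels says that the replicates are separate mice, so the p-values measure the spread between these libraries, which may be partly technical.

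The sinusoids are the capillaries of the liver, and their lining cells are unusual in having open pores (fenestrae) and almost no basement membrane. These cells clear waste from blood through scavenger receptors, among them stabilin-2 (Stab2) and the Fc receptor encoded by Fcgr2b. In chronic liver injury they can lose their pores, gain a basement membrane and take on markers of ordinary vessels, a change known as capillarization.

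The members on mm10 are single genes at known places. Stab2 lies at chr10:86841210-87007942, Oit3 at chr10:59422960-59441779 and Gpr182 at chr10:127749602-127751798, all on the minus strand. Kdr lies at chr5:75933270-75978428, Lyve1 at chr7:110850607-110862953, Clec4g at chr8:3716071-3720651, Fcgr2b at chr1:170960559-170976071 and Plvap at chr8:71497753-71511769, also on the minus strand. Vwf, at chr6:125552948-125686679, and Cd34, at chr1:194938821-194961292, lie on the plus strand. Exons of Stab2, Clec4g, Fcgr2b, Gpr182 and Cd34 overlap exons of a gene on the other strand (Gm16268, Gm16553, Gm38204, Zbtb39 and Gm16897 in that order). The sources used here do not say whether counting used the strand, so reads of these partners may not be told apart. Fcgr2b also has a close relative in Fcgr3, and the division of reads between them is uncertain.

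RefSeq's promoter table for GRCm38.p6 held 5 of the 10 members (Stab2, Kdr, Clec4g, Fcgr2b and Cd34). 4 of these were called in more than 1 comparison below, and their promoters are printed, each with 250 bases before the start of the gene and 50 after it. Cd34 is at chr1:194938571-194938870 on the plus strand, and Clec4g at chr8:3720602-3720901, Kdr at chr5:75978406-75978705 and Stab2 at chr10:87007893-87008192 are on the minus strand. Capitals mark matches, on either strand, to the letters CNGGAAG for ETS factors. The letters searched for GATA factors were GATAAG. Those for SOX factors were ACAANG. These 3 families of transcription factors are active in endothelium.
Cd34: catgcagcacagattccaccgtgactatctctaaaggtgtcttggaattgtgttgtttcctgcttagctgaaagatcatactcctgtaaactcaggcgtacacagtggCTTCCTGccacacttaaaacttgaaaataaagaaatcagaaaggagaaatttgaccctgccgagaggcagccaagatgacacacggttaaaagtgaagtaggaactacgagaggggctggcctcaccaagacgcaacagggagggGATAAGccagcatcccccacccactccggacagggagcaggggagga
Clec4g: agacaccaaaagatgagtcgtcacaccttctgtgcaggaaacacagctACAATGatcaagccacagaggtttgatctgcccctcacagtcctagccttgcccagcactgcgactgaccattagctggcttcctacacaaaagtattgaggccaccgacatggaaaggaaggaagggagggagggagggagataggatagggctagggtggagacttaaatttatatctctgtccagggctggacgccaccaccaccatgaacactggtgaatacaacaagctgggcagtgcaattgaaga
Kdr: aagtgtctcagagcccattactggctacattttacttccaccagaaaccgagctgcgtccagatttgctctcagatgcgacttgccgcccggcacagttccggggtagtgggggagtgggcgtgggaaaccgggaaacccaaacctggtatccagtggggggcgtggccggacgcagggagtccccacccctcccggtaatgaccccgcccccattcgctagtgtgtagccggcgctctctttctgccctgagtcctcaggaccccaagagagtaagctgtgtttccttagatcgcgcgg
Stab2: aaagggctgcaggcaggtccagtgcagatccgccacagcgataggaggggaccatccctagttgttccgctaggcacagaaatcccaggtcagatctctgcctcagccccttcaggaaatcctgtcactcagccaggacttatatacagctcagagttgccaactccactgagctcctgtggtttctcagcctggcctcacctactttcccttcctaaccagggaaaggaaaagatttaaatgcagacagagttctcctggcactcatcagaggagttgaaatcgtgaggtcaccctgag
Of these promoters, Cd34 held 1 ETS match, on its minus strand, and 1 GATA match just after the start, and Clec4g held 1 SOX match. None of the matches overlapped. The Kdr, Stab2 and Fcgr2b windows held none of these letters. Among all 32851 promoters in the table, 31.9% held the ETS letters, 7.44% the GATA letters and 41.2% the SOX letters.

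The libraries held 16.2 to 25.9 M reads in genes. A member had between 30 reads (Cd34) and 2787 reads (Stab2) in a library. The hepatocyte gene Alb (albumin) stood between 14.7 and 16.9 on the log2 CPM scale in every library, as a check of the tissue. Replicate 1 of the control livers stood apart at 4 weeks, where 482 of 10208 genes lay more than 2-fold from the median of its group's other libraries, and at 10 weeks, where 184 did. Values below are log2 CPM (log2 of counts-per-million, scaled by the authors within each table), and a gene was called higher or lower where limma's adjusted p was below 0.05. In bulk liver, fewer cells of a type and less RNA per cell cannot be told apart.

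Per kilobase of transcript, the sinusoidal lectin Clec4g and the Fc receptor gene Fcgr2b were the highest members in all 3 control groups, and Vwf and Cd34 the lowest. In CD livers, Clec4g stood at 62.8 CPM per kb and Fcgr2b at 50.8 CPM per kb, against 1.36 CPM per kb for Cd34 and 0.88 CPM per kb for Vwf. Between them, Kdr, Oit3, Gpr182 and Plvap stood at 12.9, 12.7, 11.9 and 11.1 CPM per kb, with neighbours closer to each other than their SD. Stab2 followed at 7.98 CPM per kb and Lyve1 at 5.62 CPM per kb. Plvap was thus near the middle of the order in control liver, while Vwf and Cd34 were scarce. In STAM livers of 10 weeks, Lyve1 stood at 19.0 CPM per kb, the fourth place in the order and within its spread of Oit3 and Gpr182, against 4.88 CPM per kb and the eighth place in their controls. There, Clec4g (40.9 CPM per kb) and Fcgr2b (40.8 CPM per kb) no longer differed beyond their spread, and Plvap (27.3 CPM per kb) was the third.

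**Figure D1:**
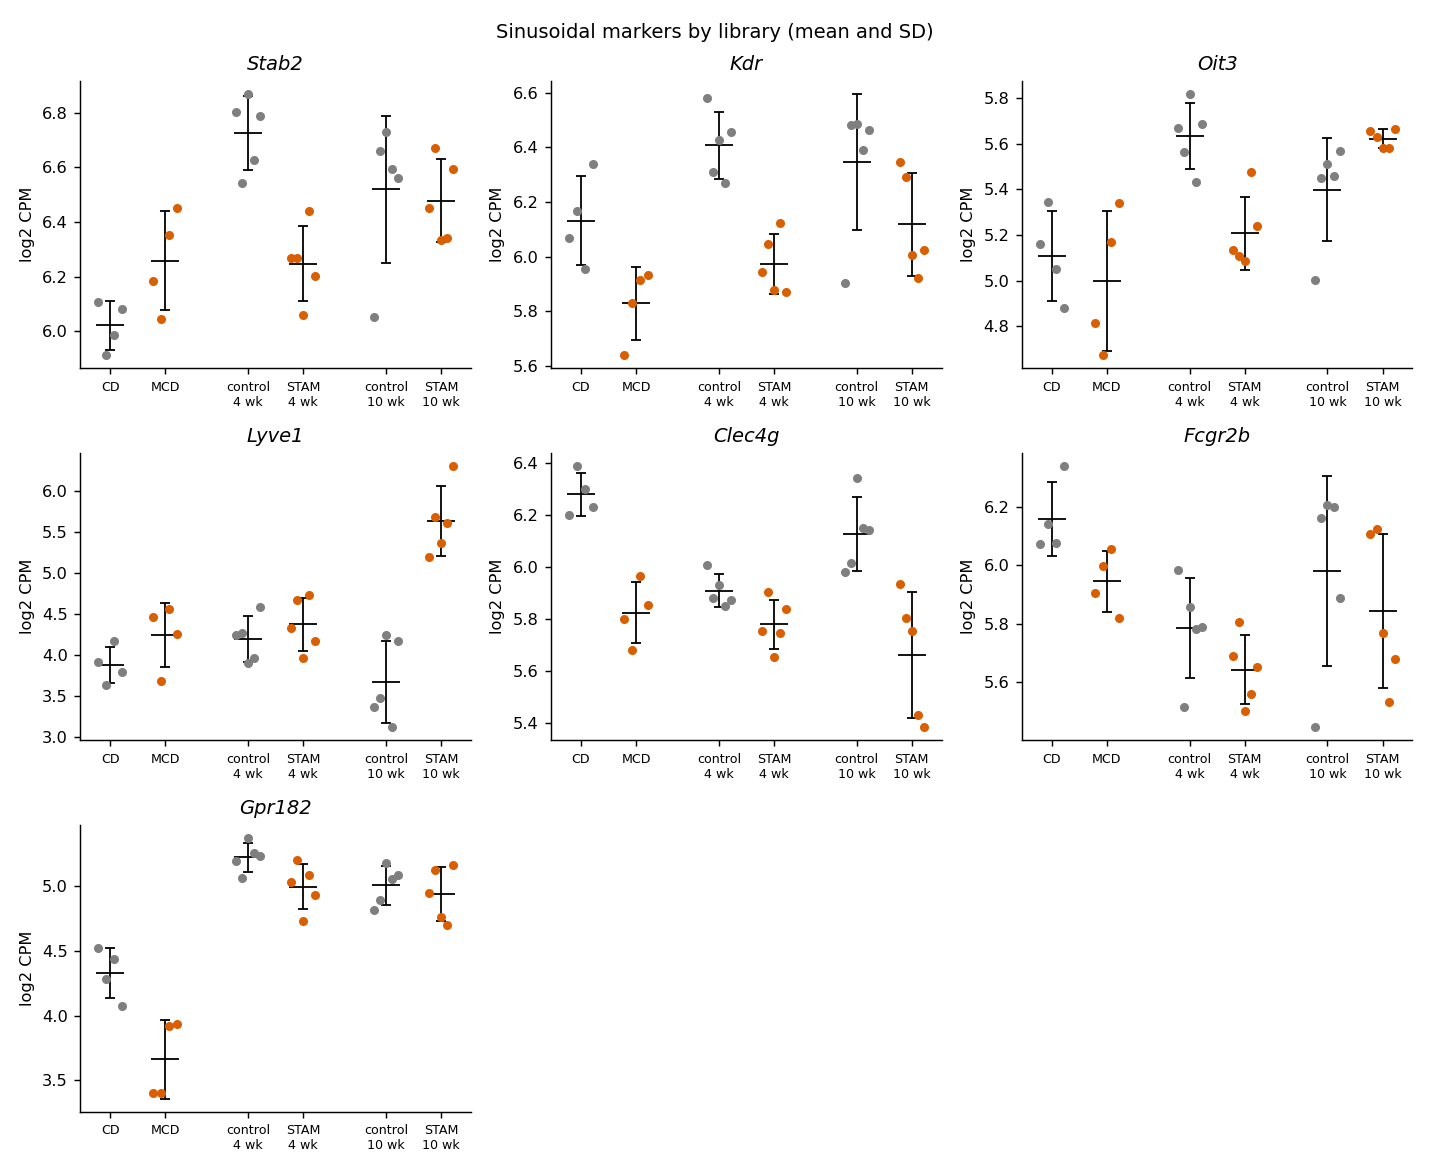
Log2 CPM (vertical axes, a separate range for each gene) of the 7 sinusoidal markers in every library, control groups in grey and diseased groups in orange, with the mean and SD as lines. Stab2, Kdr and Oit3 stood lower in STAM than control livers at 4 weeks, and Lyve1 in STAM livers of 10 weeks ran from 5.19 to 6.30, above every control library of that age; groups from different experiments were scaled separately.

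On the MCD diet, 3 sinusoidal markers fell (Gpr182, Clec4g and Kdr) and 2 markers of other vessels rose (Cd34 and Plvap). The largest changes were in Cd34, 1.75-fold higher, and in Gpr182, 1.59-fold lower. That is 5 of the 10 members, against 42.7% of all genes tested (22.6% higher and 20.1% lower), so the share called was near that of all genes. The 7 sinusoidal markers had a median log2 fold change of -0.21 and the 3 others one of 0.44, while the median of all genes tested was 0.07. Stab2, Oit3, Lyve1, Fcgr2b and Vwf were not called.

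Gpr182 encodes an atypical chemokine receptor of sinusoidal cells. It stood at 4.52, 4.29, 4.44 and 4.07 log2 CPM in the CD libraries and at 3.40, 3.40, 3.92 and 3.93 in the MCD libraries. Every MCD library lay below every CD library. Gpr182 fell by 0.67 on the log2 scale (SE 0.16, 95% interval -1.01 to -0.32, n = 4 and 4, limma adjusted p = 0.00464).

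Clec4g, which encodes the lectin LSECtin, stood at 6.20, 6.39, 6.30 and 6.23 log2 CPM on CD and at 5.80, 5.68, 5.96 and 5.85 on MCD. These groups did not overlap either. It fell by 0.45 (SE 0.09, interval -0.66 to -0.25, limma adjusted p = 0.00179). Kdr, the main receptor for vascular endothelial growth factor, stood at 6.07, 6.17, 5.96 and 6.34 on CD and at 5.64, 5.83, 5.91 and 5.93 on MCD. The gap between the groups was narrow, and Kdr fell by 0.30 (SE 0.11, interval -0.54 to -0.07, limma adjusted p = 0.0370). Given as limma adjusted p, the call for Kdr was lost without CD replicate 2 (0.0814) or 4 (0.105). The same held without MCD replicate 1 (0.107) or 2 (0.0663). It was also lost with quantile normalization (-0.18, limma adjusted p = 0.195) and with scaling by pan-endothelial genes (-0.21, limma adjusted p = 0.328). Total-read scaling gave Kdr 0.12 (limma adjusted p = 0.340). Without the filter, without trend and robust variances, or with a replicate block, limma adjusted p was 0.0809, 0.0726 and 0.0692. The call stayed with a filter at the median, a prior of 2 reads or voom.

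Cd34, a sialomucin of vessel endothelium that is also found on progenitor and connective tissue cells, stood at 2.08, 0.98, 2.01 and 2.25 log2 CPM on CD and at 2.60, 2.75, 2.55 and 2.67 on MCD. CD replicate 2 was far below the other 3, and all MCD libraries lay above all CD libraries. Cd34 rose by 0.81 (SE 0.24, interval 0.28 to 1.34, limma adjusted p = 0.0176). Without CD replicate 2 it rose by 0.53 (limma adjusted p = 0.0231). The call was lost with quantile normalization (0.53, limma adjusted p = 0.0812). Plvap, the protein of the diaphragms that close pores and caveolae, stood at 4.64, 4.54, 4.43 and 4.30 on CD and at 4.90, 4.65, 4.91 and 5.22 on MCD. Plvap rose by 0.44 (SE 0.13, interval 0.16 to 0.72, limma adjusted p = 0.0154), with MCD replicate 2 only just above the highest CD library.

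Vwf, the clotting factor stored in endothelial granules, stood at 3.16, 2.99, 3.11 and 2.59 on CD and at 2.66, 2.93, 3.03 and 3.42 on MCD. The groups overlapped fully, with a difference of 0.05 (interval -0.36 to 0.45). Stab2 differed by 0.24 (limma adjusted p = 0.0869) and Lyve1, a hyaluronan receptor shared with lymphatic vessels, by 0.37 (limma adjusted p = 0.127). Both were called higher without MCD replicate 2, Stab2 at 0.31 (limma adjusted p = 0.0338) and Lyve1 at 0.55 (limma adjusted p = 0.0129). Stab2 was also called higher with quantile normalization (0.39, limma adjusted p = 0.0171). Fcgr2b differed by -0.21 with groups that did not overlap, yet its limma adjusted p was 0.0935. In all, the groups of 6 members did not overlap, against 40.1% of all genes tested.

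Scaling the MCD libraries by total reads moved all genes up together, by 0.42 at the median. With it 49.6% of all genes were called higher and 7.98% lower, against 22.6% and 20.1% with the authors' scaling. The sinusoidal median was then 0.21 against 0.49 for all genes, where it had been -0.21 against 0.07, so its place below all genes was about the same. Kdr, Oit3, Clec4g, Fcgr2b and Gpr182 lay below the median of all genes under both scalings, and Stab2, Lyve1, Cd34 and Plvap above it. With total reads no member was called lower, and Stab2 (0.66), Lyve1 (0.79), Cd34 (1.23) and Plvap (0.86) were the members called higher.

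In STAM livers of 4 weeks, Stab2, Kdr and Oit3 were lower than in controls, each by a factor of 1.34 to 1.39, and Cd34 was 1.84-fold higher. Lyve1, Clec4g, Fcgr2b, Gpr182, Vwf and Plvap were not called. The 4 called members compare with 9.80% of all genes tested (6.52% higher and 3.27% lower), and the groups of Stab2 and Kdr did not overlap, against 10.1% of all genes. The sinusoidal median was -0.23, that of the 3 others 0.36 and that of all genes 0.01.

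Stab2 is the scavenger receptor through which sinusoidal cells take up hyaluronan. It stood at 6.80, 6.54, 6.87, 6.63 and 6.79 log2 CPM in control livers and at 6.27, 6.27, 6.06, 6.44 and 6.20 in STAM livers, so that all 5 STAM libraries lay below all 5 controls. Stab2 fell by 0.48 (SE 0.09, interval -0.66 to -0.30, n = 5 and 5, limma adjusted p = 0.00381). Kdr stood at 6.58, 6.31, 6.43, 6.27 and 6.45 in controls and at 5.94, 6.05, 5.88, 6.12 and 5.87 in STAM, again without overlap. Kdr fell by 0.44 (SE 0.08, interval -0.60 to -0.27, limma adjusted p = 0.00388).

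Oit3 encodes a secreted protein with a zona pellucida domain. It stood at 5.67, 5.56, 5.82, 5.43 and 5.69 in controls and at 5.13, 5.11, 5.09, 5.48 and 5.24 in STAM livers. STAM replicate 4 reached into the control range. Oit3 fell by 0.43 (SE 0.09, interval -0.63 to -0.22, limma adjusted p = 0.0120). The 3 falls kept their direction and call without any 1 library, control replicate 1 included. Scaled by 8 pan-endothelial genes, the differences were -0.35, -0.31 and -0.30 for Stab2, Kdr and Oit3, and none was called (limma adjusted p = 0.0939, 0.183 and 0.172). That scaling shifted the median of all genes by 0.13. With it 0.562% of all genes were called lower, against 3.27% with the authors' scaling.

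Cd34 stood at 1.14, 1.69, 2.67, 1.75 and 1.98 log2 CPM in control livers of 4 weeks and at 2.53, 2.96, 2.32, 2.82 and 3.02 in STAM livers. Control replicate 3 lay within the STAM range and the other 4 controls below it. Cd34 rose by 0.88 (SE 0.24, interval 0.35 to 1.41, limma adjusted p = 0.0394). The call was lost without control replicate 2, 4 or 5 and without STAM replicate 1, 2, 4 or 5, with limma adjusted p between 0.0650 and 0.0968.

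Vwf in the same control replicate 3 stood at 4.98 log2 CPM, above every STAM library, where the other controls held 3.08, 3.62, 3.50 and 3.16 and the STAM libraries 3.83, 4.01, 3.70, 3.93 and 4.64. The difference over all libraries was 0.36 (SE 0.35, limma adjusted p = 0.608). Without that library it was 0.68, and called (limma adjusted p = 0.0421). The summed level of 9 markers of portal fibroblasts and mesothelium was 63.1 CPM in this library and 17.9 to 32.2 CPM in the other 4 controls, and its part in the result was not tested. Plvap differed by 0.05 (interval -0.15 to 0.25), and all its libraries at 4 weeks lay between 5.24 and 5.73.

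**Figure D2:**
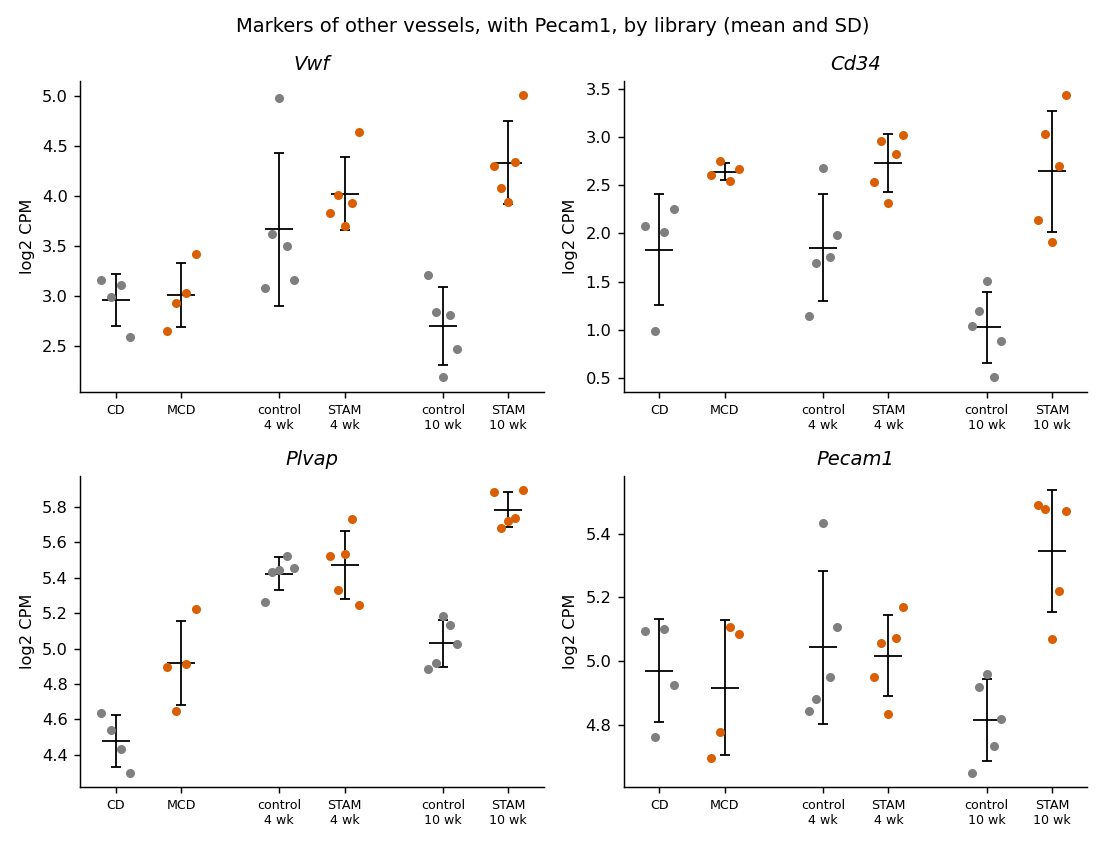
Log2 CPM (vertical axes, a separate range for each gene) of Vwf, Cd34, Plvap and the pan-endothelial gene Pecam1 in every library, control groups in grey and diseased groups in orange, with the mean and SD as lines. Vwf, Cd34, Plvap and Pecam1 separated the groups at 10 weeks, and control replicate 3 at 4 weeks stood at 4.98 for Vwf; groups from different experiments were scaled separately.

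In STAM livers of 10 weeks, all 3 markers of other vessels rose, Vwf 3.10-fold, Cd34 3.07-fold and Plvap 1.69-fold. Lyve1 rose more than any other member, 3.89-fold. Clec4g fell to a level 1.38-fold lower, and Stab2, Kdr, Oit3, Fcgr2b and Gpr182 were not called. The 5 called members compare with 47.8% of all genes tested (25.3% higher and 22.5% lower), and the 6 members whose groups did not overlap with 33.1%. The median difference was 1.62 for Vwf, Cd34 and Plvap, -0.07 for the sinusoidal markers and 0.05 for all genes.

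Lyve1 stood at 3.36, 3.47, 4.23, 3.12 and 4.16 log2 CPM in control livers and at 5.19, 5.68, 5.36, 5.60 and 6.30 in STAM livers. The lowest STAM library was well above the highest control. Lyve1 rose by 1.96 (SE 0.27, interval 1.37 to 2.55, n = 5 and 5, limma adjusted p = 0.000232). Of 4 measured lymphatic markers (Pdpn, Mmrn1, Reln and Prox1), 0 were called higher and Prox1, which hepatocytes also express, was called lower. Of all genes tested, 25.3% were called higher and 22.5% lower. The summed level of the 4 markers was 195 to 268 CPM in controls and 161 to 195 CPM in STAM livers. Nearly all of that sum came from Prox1 and from Reln, which is also a stellate cell marker. Pdpn and Mmrn1 together stood at 0.18 to 2.46 CPM in controls and 1.22 to 1.52 CPM in STAM livers, and the part of lymphatic vessels in the Lyve1 result was not tested.

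Vwf stood at 3.21, 2.84, 2.19, 2.81 and 2.47 log2 CPM in controls and at 4.30, 4.08, 3.94, 4.34 and 5.01 in STAM livers, with no overlap. Vwf rose by 1.63 (SE 0.22, interval 1.16 to 2.10, limma adjusted p = 9.84e-05). Megakaryocytes and platelets also hold Vwf. Of 7 platelet markers 2 were called higher (Gp5 and Pf4), against 25.3% of all genes tested. All 7 had reads, and their summed level ran from 2.87 to 4.21 CPM in controls and from 4.31 to 5.23 CPM in STAM livers. Their part in the Vwf result was not tested.

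Cd34 stood at 1.04, 1.20, 1.50, 0.51 and 0.88 log2 CPM in controls and at 2.14, 3.03, 1.91, 2.70 and 3.43 in STAM livers. STAM replicate 5 was the highest for Cd34, as it was for Vwf and Lyve1. Cd34 rose by 1.62 (SE 0.28, interval 1.02 to 2.22, limma adjusted p = 0.000434). Of 9 markers of portal fibroblasts and mesothelium, cells that can carry Cd34, 4 were called higher (Dpt 2.26, Gsn 1.49, Gpm6a 1.38 and Thy1 1.03 as log2 fold changes) and 0 lower. Of all genes tested, 25.3% were called higher and 22.5% lower. All 9 had reads, and their summed level was 14.4 to 31.2 CPM in controls and 43.7 to 88.7 CPM in STAM livers. Their part in the Cd34 result was not tested.

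Plvap stood at 4.88, 4.92, 5.18, 5.13 and 5.03 in controls and at 5.88, 5.68, 5.72, 5.73 and 5.89 in STAM livers. Plvap rose by 0.75 (SE 0.07, interval 0.59 to 0.91, limma adjusted p = 5.92e-06). The rises of Lyve1, Vwf, Cd34 and Plvap kept their direction and call without any 1 library.

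Clec4g stood at 5.98, 6.01, 6.34, 6.15 and 6.14 log2 CPM in controls and at 5.93, 5.80, 5.75, 5.43 and 5.38 in STAM livers. The groups were separated by the small gap between control replicate 1 and STAM replicate 1. Clec4g fell by 0.47 (SE 0.11, interval -0.70 to -0.23, limma adjusted p = 0.00315). Scaled by total reads, which shifted the median of all genes by 0.29, it stood at -0.17 and was not called (limma adjusted p = 0.164).

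Control replicate 1 held the lowest control value of every sinusoidal marker except Lyve1. Kdr stood at 5.90 there, at 6.48, 6.49, 6.39 and 6.46 in the other controls and at 6.35, 6.29, 6.01, 5.92 and 6.02 in STAM livers. Over all libraries Kdr differed by -0.23 (limma adjusted p = 0.132). Without control replicate 1 Kdr was called lower, at -0.34 (limma adjusted p = 0.00648).

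Stab2 stood at 6.05, 6.66, 6.73, 6.59 and 6.56 in controls and at 6.45, 6.67, 6.33, 6.34 and 6.59 in STAM livers, and the groups overlapped (difference -0.04, interval -0.30 to 0.22). Oit3 was barely higher in STAM livers, where it stood at 5.65, 5.63, 5.58, 5.58 and 5.67, against 5.00, 5.45, 5.51, 5.46 and 5.57 in controls. The difference of 0.22 was not called (limma adjusted p = 0.0609), although the groups did not overlap. It was called without control replicate 5 (0.27, limma adjusted p = 0.0405). Part of the difference came from control replicate 1, which at 5.00 lay far below the other controls. Fcgr2b (-0.14, limma adjusted p = 0.508) and Gpr182 (-0.07, limma adjusted p = 0.618) were not called.

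The authors' deposited table for the diet called 2 members higher and 2 lower, leaving out Kdr (adjusted p = 0.0760). For STAM, the authors' deposited tables called 1 higher and 3 lower at 4 weeks and 4 higher and 1 lower at 10 weeks.

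**Figure D3:**
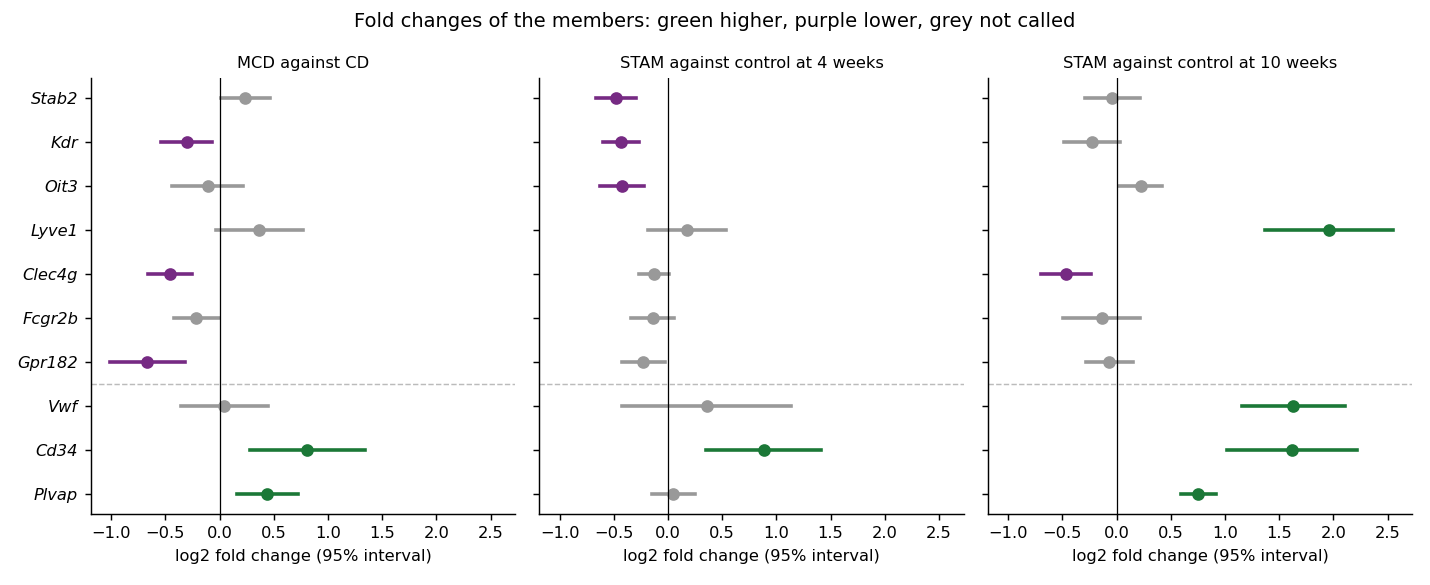
Log2 fold change (horizontal axis) of the 10 members in the 3 comparisons, as points with their 95% intervals from limma; green marks genes called higher, purple genes called lower and grey genes not called, with the authors' scaling. Vwf, Cd34 and Plvap, below the dashed line, have positive values in all 3 panels, although Vwf on the MCD diet turns to -0.10 with quantile normalization; total-read scaling, not drawn here, moves all genes up by 0.42 on the MCD diet and 0.29 at 10 weeks at the median.

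Of the genes that endothelium of every kind shares, most were called higher in STAM livers of 10 weeks with the authors' scaling, and none was on the MCD diet. Pecam1, a junction protein, stood between 4.65 and 4.96 log2 CPM in control livers of 10 weeks and between 5.07 and 5.49 in STAM livers, and rose by 0.53 (SE 0.09, limma adjusted p = 0.000497). Cdh5, the cadherin of endothelial junctions, rose by 0.41 (limma adjusted p = 0.0145), with overlapping groups. At 10 weeks, 11 of 18 pan-endothelial genes were called higher and 1 (Cldn5) lower, against 25.3% and 22.5% of all genes. The median of the 18 was 0.42. On the MCD diet 0 of the 18 were called higher and 8 lower, against 22.6% and 20.1% of all genes. The median of the 18 was -0.27 there. At 4 weeks 0 were higher and 1 lower, against 6.52% and 3.27% of all genes. With total reads, 4 of the 18 were called higher and 0 lower on the MCD diet, against 49.6% and 7.98% of all genes.

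Scaled by 8 pan-endothelial genes, which lowered the median of all genes by 0.46 at 10 weeks, 6 of the 7 sinusoidal markers were called lower, as were 49.7% of all genes. Stab2 then stood at -0.50 (limma adjusted p = 0.000309), Kdr at -0.69 (limma adjusted p = 3.04e-05), Fcgr2b at -0.60 (limma adjusted p = 0.000848), Gpr182 at -0.53 (limma adjusted p = 0.000288) and Oit3 at -0.24 (limma adjusted p = 0.0323). Clec4g was the other of the 6. Lyve1, Vwf, Cd34 and Plvap were called higher under this scaling too.

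**Figure D4:**
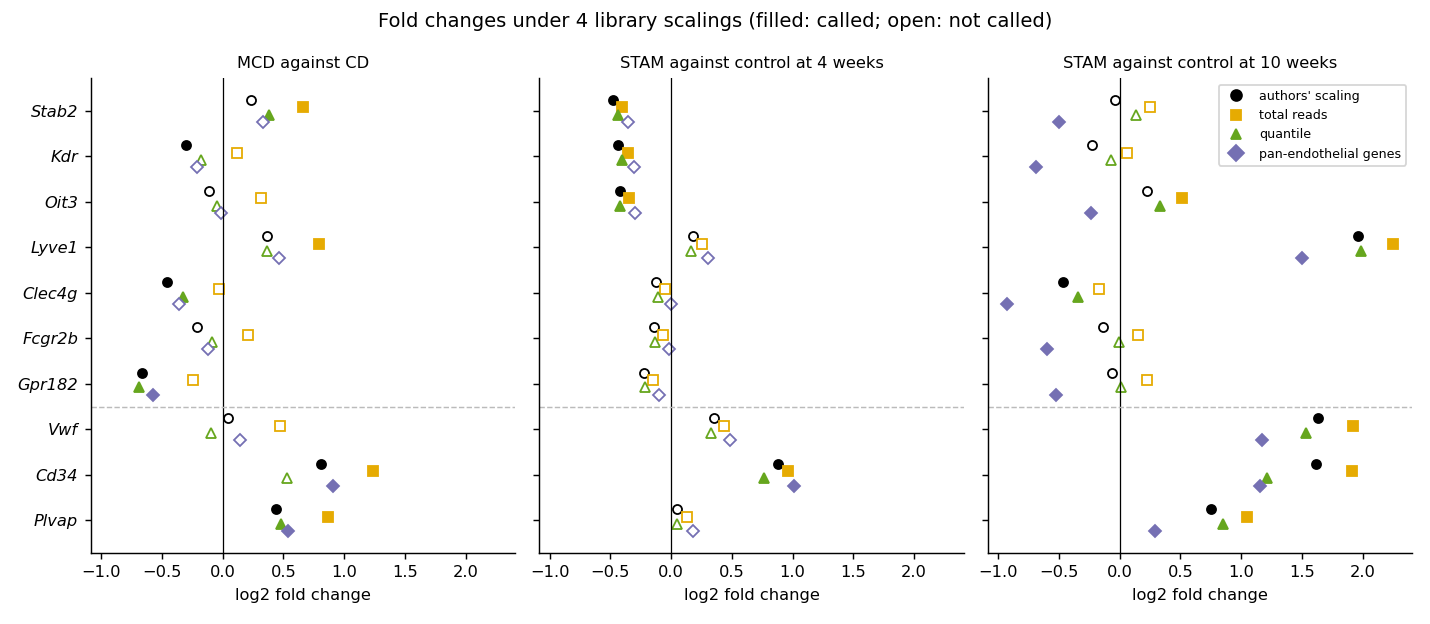
Log2 fold change (horizontal axis) of the 10 members under 4 scalings of the libraries: the authors' own, total reads, quantile normalization and 8 pan-endothelial genes; filled symbols are called and open symbols are not. Total reads moved the median of all genes by 0.42 on the MCD diet and 0.29 at 10 weeks, and pan-endothelial scaling moved it by -0.46 at 10 weeks, so the members shift together; Lyve1, Vwf, Cd34 and Plvap at 10 weeks were called higher under all 4.

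A comparison within each library does not depend on a scaling factor shared by all its genes. Quantile normalization is not such a factor and can change it. The mean log2 CPM of Vwf, Cd34 and Plvap was set against that of the 7 sinusoidal markers as a difference, so that a less negative value means a smaller distance. In the diet experiment this distance was -2.32 ± 0.18 (SD, n = 4) on CD and -1.73 ± 0.16 (SD, n = 4) on MCD, and the groups did not overlap. At 4 weeks it was -2.05 ± 0.45 (SD, n = 5) in controls and -1.38 ± 0.16 (SD, n = 5) in STAM livers, and control replicate 3, at -1.37, lay among the STAM libraries. At 10 weeks it was -2.66 ± 0.29 (SD, n = 5) in controls, from -2.90 to -2.18, and -1.50 ± 0.31 (SD, n = 5) in STAM livers, from -1.79 to -1.05. These are descriptions of the members and carry no test.

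**Figure D5:**
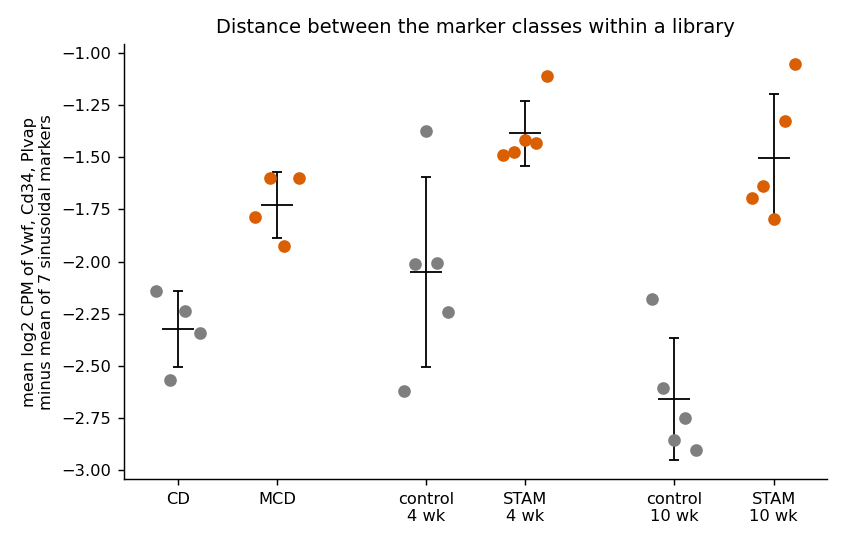
Mean log2 CPM of Vwf, Cd34 and Plvap minus that of the 7 sinusoidal markers within each library (vertical axis), control groups in grey and diseased groups in orange, with the mean and SD as lines. The groups are apart on the MCD diet and at 10 weeks, and at 4 weeks 1 control library at -1.37 lies among the STAM libraries.

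The distance of single members from Stab2 within a library is also free of such a shared factor. Lyve1 minus Stab2 ran from -3.47 to -2.40 in control livers of 10 weeks and from -1.26 to -0.29 in STAM livers. Clec4g minus Stab2 was 0.26 ± 0.17 (SD, n = 4) on CD and -0.43 ± 0.11 (SD, n = 4) on MCD, and Kdr minus Stab2 was 0.11 ± 0.17 (SD, n = 4) and -0.43 ± 0.15 (SD, n = 4). Against Stab2, both Clec4g and Kdr stood lower in every MCD library than in every CD library. Vwf minus Stab2 was -3.06 ± 0.29 (SD, n = 4) on CD and -3.25 ± 0.22 (SD, n = 4) on MCD. Plvap minus Stab2 ran from -1.78 to -1.37 on CD and from -1.44 to -1.23 on MCD, with overlap. Cd34 minus Stab2 ran from -4.93 to -3.83 on CD and from -3.81 to -3.29 on MCD. Vwf thus did not share the smaller distance of the 3 markers on the diet. At 4 weeks Kdr minus Stab2 differed by less than its SD, at -0.32 ± 0.09 (SD, n = 5) and -0.27 ± 0.07 (SD, n = 5). Clec4g minus Stab2 was -0.82 ± 0.11 (SD, n = 5) in controls and -0.47 ± 0.14 (SD, n = 5) in STAM livers of that age.

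The STAM effect was compared between the ages in a fit over all 4 STAM and control groups. 5 members had a more positive effect at 10 than at 4 weeks and 0 a more negative one, against 20.0% of all genes tested (8.89% more positive and 11.2% more negative). Lyve1 differed by 1.78 (SE 0.33, limma adjusted p = 0.00118), Vwf by 1.28 (SE 0.43, limma adjusted p = 0.0439) and Plvap by 0.70 (SE 0.12, limma adjusted p = 0.000443). Oit3, called lower in STAM livers at 4 weeks, differed by 0.65 (SE 0.14, limma adjusted p = 0.00225), and Stab2 by 0.44 (SE 0.15, limma adjusted p = 0.0454). Cd34 differed by 0.74 (limma adjusted p = 0.198), Kdr by 0.21 (limma adjusted p = 0.344) and Clec4g by -0.34 (limma adjusted p = 0.0726), none of them called. Pecam1 also differed, by 0.56 (limma adjusted p = 0.0129). The calls for Stab2 and Vwf were lost without most single libraries, with limma adjusted p up to 0.0884 for Stab2 and 0.0802 for Vwf. With pan-endothelial scaling only Lyve1 was called higher and the value for Stab2 was -0.15. That scaling called 2.41% of all genes higher and 47.3% lower.

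The MCD effect was also compared with the STAM effect at 10 weeks, which shares the 10-week libraries with the comparison of ages. 3 members were lower in this difference and 0 higher, against 27.9% of all genes tested (15.0% lower and 12.9% higher). Lyve1 differed by -1.59 (SE 0.36, limma adjusted p = 0.00287) and Vwf by -1.59 (SE 0.30, limma adjusted p = 0.000624). Gpr182 differed by -0.60 (SE 0.19, limma adjusted p = 0.0217), a call lost without MCD replicate 1 (limma adjusted p = 0.0525) or 2 (limma adjusted p = 0.0562). The effects on Clec4g differed by 0.01 with an interval of -0.30 to 0.32 (limma adjusted p = 0.970). Stab2 (0.28), Plvap (-0.31) and Cd34 (-0.81) were not called over all libraries. Cd34 was called without CD replicate 2 (-1.09, limma adjusted p = 0.0351), Plvap without MCD replicate 4 (-0.41, limma adjusted p = 0.0238) and Stab2 without 10-week control replicate 1 (0.39, limma adjusted p = 0.0273).

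Other genes of the same cells were taken from lists, which were also drawn up with earlier results of these data known. Of all genes tested, 22.6% were called higher and 20.1% lower on the MCD diet. The shares were 6.52% and 3.27% at 4 weeks, and 25.3% and 22.5% at 10 weeks. Of 20 further sinusoidal genes, 2 were called higher and 4 lower on the MCD diet, 1 and 4 at 4 weeks, and 3 and 5 at 10 weeks, with medians of 0.04, -0.29 and -0.07. Gata4, a transcription factor of sinusoidal identity, fell by 0.98 on the MCD diet and by 0.43 at 4 weeks. Nrp1, a co-receptor of Kdr, fell by 0.42 at 4 weeks and by 0.41 at 10 weeks. Flt4, the receptor for VEGF-C, rose by 0.55 at 10 weeks, and Wnt9b, a Wnt ligand of central vein endothelium, by 1.21 at 4 weeks. With total-read scaling, 13 of the 20 were called higher and 1 lower on the MCD diet, and 7 and 1 at 10 weeks. Of all genes, 49.6% were called higher with that scaling on the MCD diet and 45.8% at 10 weeks. With pan-endothelial scaling 0 of the 20 were higher and 14 lower at 10 weeks, against 10.9% and 49.7% of all genes.

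Of other markers of vessels with a continuous lining, 15 of 18 were called higher and 1 lower at 10 weeks. That compares with 25.3% and 22.5% of all genes. The median of the 18 was 1.23. Their summed level went the other way, with 557 to 703 CPM in controls and 424 to 577 CPM in STAM livers. Most of the sum in controls was the chemokine gene Cxcl12, which fell and stood at 460 to 609 CPM there against 249 to 297 CPM in STAM livers (limma adjusted p = 2.55e-06). At 10 weeks, Fabp4, a fatty acid carrier of capillaries, rose by 2.38, and the adhesion gene Sele rose from 6 to 73 reads over the 5 libraries of each group. Aplnr had 2 reads in controls and 25 in STAM livers, a ratio of 10.9 with a counting interval of 2.73 to 95.3. At 4 weeks 5 of 18 were called higher and 1 lower, led by Ly6a (2.21), against 6.52% and 3.27% of all genes. On the MCD diet 5 of 17 were called higher and 4 lower, against 22.6% and 20.1% of all genes. The summed level of all 18 was 404 to 566 CPM on CD and 364 to 392 CPM on MCD. Cxcl12 fell by 1.01 there. Sele had 9 reads over the CD and 119 over the MCD libraries, and the adhesion genes Icam1 and Vcam1 rose by 1.88 and 1.77. Which cells carried the transcripts of this list, and the part of cells other than endothelium, was not tested.

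Of 13 genes of the basement membrane, which sinusoids nearly lack, 10 were called higher and 1 lower at 10 weeks. Of all genes tested, 25.3% were called higher and 22.5% lower there. The median of the 13 was 0.74. Lama5 rose by 1.61, Col4a2 by 1.48, Col4a1 by 1.36 and Nid1 by 1.01, on the log2 scale. On the MCD diet 6 of the 13 were called higher and 3 lower, against 22.6% and 20.1% of all genes. Nid1 (1.24) and Col4a1 (1.17) were up there, and Col15a1 (-1.38) and Nid2 (-1.33) down. At 4 weeks 1 was higher and 1 lower, against 6.52% and 3.27% of all genes. Stellate cells and fibroblasts also make these proteins, and of 8 stellate markers 5 were called higher and 0 lower on the MCD diet and 4 and 1 at 10 weeks. The stellate summed level was 174 to 182 CPM on CD and 222 to 276 CPM on MCD, and 163 to 229 CPM in controls and 188 to 298 CPM in STAM livers of 10 weeks, and its part in the result was not tested.

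In a list of 20 genes of VEGF, angiopoietin and Notch signalling, 3 were called higher and 4 lower on the MCD diet, 2 and 4 at 4 weeks and 8 and 2 at 10 weeks. Of all genes, 22.6% were called higher and 20.1% lower on the MCD diet. The shares were 6.52% and 3.27% at 4 weeks, and 25.3% and 22.5% at 10 weeks. Vegfa, the ligand of Kdr, fell by 0.77 at 4 weeks. Angpt2, a destabilizing ligand of vessels, rose by 0.89 on the MCD diet and by 1.47 at 10 weeks. Dll4, a Notch ligand, fell by 1.08 on the MCD diet and by 0.70 at 4 weeks.

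Markers of other cells that carry some members were counted beside them. Macrophage markers, relevant to Fcgr2b and Lyve1, were called higher for 3, 7 and 5 of 9 genes on the MCD diet, at 4 and at 10 weeks, and 0 were lower. Of all genes, 22.6%, 6.52% and 25.3% were called higher in that order. The summed level of the macrophage markers at 10 weeks was 341 to 526 CPM in controls and 474 to 666 CPM in STAM livers. B cells also carry Fcgr2b, and 0 of 6 B cell markers were called in any of the 3 comparisons. Of all genes, 42.7%, 9.80% and 47.8% were called. Hepatocyte markers were called lower for 4, 1 and 5 of 6 genes, against 20.1%, 3.27% and 22.5% of all genes. The summed level of the hepatocyte markers at 10 weeks was 77743 to 103048 CPM in controls and 41430 to 55471 CPM in STAM livers. The part of these cells in the results was not tested.

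Across the 28 libraries, after the mean of each group was subtracted, some sinusoidal markers varied closely together. Pearson's r was 0.80 between Kdr and Fcgr2b, 0.74 between Stab2 and Kdr, 0.71 between Stab2 and Oit3 and 0.70 between Stab2 and Gpr182. It was 0.47 between Vwf and Cd34, 0.07 between Vwf and Plvap, -0.29 between Vwf and Kdr and 0.61 between Plvap and Oit3. For Lyve1 it was 0.50 with Gpr182, 0.47 with Stab2, 0.41 with Cd34, 0.34 with Oit3, 0.26 with Plvap and 0.14 with Kdr. It was 0.025 with Clec4g, -0.053 with Fcgr2b and -0.17 with Vwf. The genes most like Stab2 among 14848 were Zeb2 (0.83), Itga9 (0.81), Cdh5 (0.79), Arhgap31 (0.79) and Mrc1 (0.78). Those most like Vwf were Fbln2 (0.79), Chrm3 (0.79), Postn (0.79), Vcan (0.78) and Samd14 (0.77), and those most like Plvap were Tmc8 (0.76), Dok1 (0.75), Lama1 (0.74), H2-DMb2 (0.74) and Marcksl1 (0.73). The points share their library and its scaling, and these values are descriptions.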

How the data were processed

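Whole-liver polyadenylated RNA was sequenced from 28 libraries. Per the submitters' processing notes, reads were aligned with STAR 2.4.2a to mm10; the sources used here do not name the counter or its strand setting. The deposited values are log2 CPM on the authors' effective library sizes with a prior of 0.25 reads, per the values themselves, 1 table per comparison. The authors' deposited tables also hold log2 fold changes, p-values and adjusted p-values. 1 was added to the deposited start positions, of which 10880 of 19397 then equalled RefSeq's (688 as deposited). Whole reads were recovered for 100% of values (within 0.05 reads); they gave totals of 16.2 to 25.9 M and factors for the total-read scaling. Intervals on read ratios cover counting error only, and 3 reads correspond to at most 0.200 CPM.

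Within a table, log2 CPM was tested in limma 3.58.1 (R 4.3.3, statmod 1.5.0), with its trend and robust options, for genes whose mean lay above the 25th percentile, with two-sided Benjamini-Hochberg adjusted p below 0.05 over all genes tested. Differences between effects used 1 fit over 4 groups. Tested on simulated reads for 15312 genes, 1.5-fold changes were recovered for 79% (MCD), 83% (4 weeks) and 89% (10 weeks) of 100 changed genes. The dispersion used was 0.0107, 0.0120 and 0.00803 in that order. Recovery at the spread of Vwf (SD 0.77 log2 CPM) or Cd34 (SD 0.56 log2 CPM) in control livers of 4 weeks was not tested. The lowest ratio of chi-square to its degrees of freedom between replicates was 11.4, so no libraries of a group differed by as little as counting noise.

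The members and lists were chosen with earlier results of these data known. All 10 members are named, of other lists up to 4 called genes with the largest change, and for Stab2, Vwf and Plvap the 5 genes with the highest correlation. Alternatives were total-read, quantile and pan-endothelial scaling (the mean of Pecam1, Cdh5, Tie1, Egfl7, Eng, Esam, Erg and Clec14a), no filter, a filter at the median, a prior of 2 reads, voom on recovered reads, no trend, a replicate block and leaving out each library.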

Additional observations from a re-analysis of the deposited data

Results flagged for a closer look

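Of 60 sets of values (10 members in 6 groups of 4 or 5 libraries), 4 had an extreme library whose gap to its nearest neighbour, over the range of the set, passed Dixon's 95% critical value. Chance gives about 1 in 20 such sets where the sets are independent. The members share libraries and some vary closely together, so the count of 4 in 60 cannot be judged against that rate. Vwf stood at 4.98 log2 CPM in control replicate 3 at 4 weeks. Stab2 at 6.05, Kdr at 5.90 and Oit3 at 5.00 log2 CPM stood low in control replicate 1 at 10 weeks, so that 3 of the 4 came from 1 library. Without it, the STAM difference for Kdr at 10 weeks was -0.34 (limma adjusted p = 0.00648).

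The STAM effect differed between the ages by a test of the difference itself for Stab2 (0.44), Oit3 (0.65), Lyve1 (1.78), Vwf (1.28) and Plvap (0.70), each more positive at 10 weeks. The calls for Stab2 and Vwf were lost without most single libraries. With pan-endothelial scaling only Lyve1 stayed called higher. The MCD effect differed from the STAM effect at 10 weeks for Lyve1 (-1.59), Gpr182 (-0.60) and Vwf (-1.59), each more negative on the diet. The call for Gpr182 was lost without some single libraries.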

How the results depend on the processing

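Of 1087 member values recomputed, 952 kept their direction and call. The counts of members called moved most with scaling. With total reads, 4 were called higher and 0 lower on the MCD diet, against 49.6% and 7.98% of all genes. At 10 weeks 0 members were lower with total reads, against 6.22% of all genes. With pan-endothelial scaling, 1 was called lower on the MCD diet, 0 at 4 weeks and 6 at 10 weeks. Of all genes, 11.5%, 0.562% and 49.7% were called lower in that order. The difference between the ages then had 7464 genes called, with 1 member higher and 4 lower. Of all genes, 2.41% were higher and 47.3% lower in it. The difference between the models had 6371 genes called, with 3 members higher. Of all genes, 38.8% were higher and 3.68% lower in it. Without the filter, 0 members were called higher on the MCD diet and at 4 weeks, and 3 in the difference between the ages. Without trend and robust variances 0 were higher at 4 weeks and 3 in the age difference.

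Replicate numbers did not pair the libraries (correlations of same-numbered libraries from -0.12 to 0.01). With a replicate block, 848 genes were called at 4 weeks against 1500 without it, 0 members were higher at 4 weeks and 3 in the age difference.

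Leaving out 1 library gave 5732 to 6217 genes called on the MCD diet, with 2 to 4 members higher and 2 to 3 lower. At 4 weeks it gave 982 (without STAM replicate 1) to 1821 genes, 0 to 2 members higher and 3 lower, and at 10 weeks 6596 to 7421 genes, 4 to 5 higher and 1 to 2 lower. For the ages it gave 2435 to 3802 genes, 3 to 5 members higher and 0 to 1 lower, and for the models 3679 to 4312 genes, 0 to 1 higher and 2 to 4 lower.

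Directions turned as follows. Total reads and pan-endothelial scaling also shift all genes; for the rest the cause was not tested. On the MCD diet, total reads gave Kdr 0.12, Oit3 0.31 and Fcgr2b 0.21, and quantile normalization gave Vwf -0.10. At 10 weeks total reads gave Stab2 0.25, Kdr 0.064, Fcgr2b 0.15 and Gpr182 0.23, quantile normalization gave Stab2 0.13 and Gpr182 0.0071, and pan-endothelial scaling gave Oit3 -0.24. For the ages, pan-endothelial scaling gave Stab2 -0.15, Kdr -0.38, Fcgr2b -0.58 and Gpr182 -0.43. For the models, total reads gave Kdr 0.057 and Fcgr2b 0.058, and pan-endothelial scaling gave Kdr 0.48, Fcgr2b 0.48, Oit3 0.22 and Plvap 0.24. Leaving out 1 library turned differences near 0. On the MCD diet Vwf ran from -0.092 (without MCD replicate 4) to 0.16. At 4 weeks Plvap ran from -0.015 (without STAM replicate 4) to 0.11, and at 10 weeks Stab2 from -0.16 to 0.012 (without control replicate 3). In the age difference Fcgr2b ran from -0.13 to 0.082, and in the model difference Clec4g from -0.059 to 0.078, Kdr up to 0.035 and Fcgr2b up to 0.059. Cd34 had the fewest reads of the members, down to 30 in a library.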
